A study of Homo sapiens with 4 samples.

Results

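The 6 miRNA genes of the human HOX clusters were MIR10A, MIR10B, MIR196A1, MIR196A2, MIR196B and MIR615, among 7062 listed small RNA features. Their symbols came from the Ensembl identifier for 4 and from an identical RefSeq position for 2. All 6 lay at exactly the position of the RefSeq hairpin of that name in GRCh38.p14, which for those 2 follows from the naming. They were measured by small RNA sequencing in HEK293T, a transformed human embryonic kidney line (the cell line field of the labels reads HEK293), with 2 libraries from each of the groups 52X T4A and 52X WT. Both groups had been transiently transfected with 1.5 µg of plasmid per well and, from the next day, selected with α-amanitin at 2.5 µg/ml over 72 h, by which time untransfected cells are lost according to the labels. The plasmids gave the C-terminal domain (CTD) of RPB1, the catalytic subunit of RNA polymerase II, as wild-type repeats in 52X WT and with threonine 4 of the repeats changed to alanine in 52X T4A. Because expression was transient, the selected cells can differ in how much RPB1 they carry, and no untransfected or untreated library was part of the comparison. The question addressed here was how abundant each HOX cluster miRNA was and how its level differed between the groups.

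HOX genes encode the homeodomain transcription factors that set positional identity along the body axis, and they sit in clusters whose gene order follows their order of expression. RNA polymerase II transcribes the miRNA genes among them, and the primary transcript is cut by Drosha to a hairpin and by Dicer to a mature strand. The mature strand finds mRNAs mainly through its seed, bases 2 to 8. miR-10 genes lie beside the paralogs HOXB4 and HOXD4, miR-196 genes lie near the group 9 genes, and both families are known to repress HOX mRNAs, miR-196 with HOXB8 as the textbook target. MIR615 lies within HOXC5 and has a seed of its own.

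The mature strands are shown because they set which of the 6 loci a read can be told from. Sequences are from RefSeq (GRCh38.p14), written 5′ to 3′, with the seed in capitals. In the miR-10 pair they were
hsa-miR-10a-5p: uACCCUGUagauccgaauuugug
hsa-miR-10a-3p: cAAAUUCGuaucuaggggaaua
hsa-miR-10b-3p: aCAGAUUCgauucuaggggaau
with hsa-miR-10b-5p named only. In the miR-196 genes and MIR615 they were
hsa-miR-196a-5p: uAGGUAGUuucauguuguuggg
hsa-miR-196b-5p: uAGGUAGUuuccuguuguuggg
hsa-miR-615-3p: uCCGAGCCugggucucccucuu
The sequence of hsa-miR-196a-5p is encoded unchanged by both MIR196A1 and MIR196A2. It shares its seed with hsa-miR-196b-5p and differs from it by the substitution A12C, counted from the 5′ end, over 22 bases. The best placement of hsa-miR-10a-5p on the MIR10B hairpin had 1 mismatch over its 23 bases, and the longest unbroken run shared by the MIR10A and MIR10B hairpins was uauauacccuguaga. The 3p strand of MIR10B differed more, with at least 3 mismatches on the MIR10A hairpin. None of the other pairs of members from different families shared a hairpin run longer than 8 bases. How the submitters treated reads that match several loci was not stated, so the separate levels within the miR-10 pair and within the miR-196 genes are uncertain.

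The genes were placed within their clusters next (positions as deposited, hg38 per the submitters' processing notes). MIR10A (ENSG00000284038.1) lies on chromosome 17, spanning 48579838 to 48579947 (minus strand), 1487 bases from HOXB4 and within the RefSeq span of HOXB3. In GENCODE v44lift37 its hairpin overlaps an intron of HOXB3, an exon of the long noncoding RNA ENSG00000257178 (same strand) and an intron of HOXB-AS3 (opposite strand). MIR10B (ENSG00000207744.1) lies on chromosome 2, spanning 176150303 to 176150412 (plus strand), 1137 bases from HOXD4 and in an intron of HOXD3 in GENCODE. Each member of the miR-10 pair thus sits beside a paralog of the same group.

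The 3 miR-196 genes lie in separate clusters. MIR196A1 (ENSG00000210741.1) is on chromosome 17, spanning 48632490 to 48632559 (minus strand), 6131 bases from HOXB9, in a GENCODE intron of HOXB7 and, on the opposite strand, of HOXB-AS4. MIR196A2 (ENSG00000207924.3) is on chromosome 12, spanning 53991738 to 53991847 (plus strand), between HOXC10 at 1458 bases and HOXC9 at 8313 bases, and in a GENCODE intron of HOXC6. MIR196B (ENSG00000283745.1) is on chromosome 7, spanning 27169480 to 27169563 (minus strand), between HOXA10 at 1041 bases and HOXA9 at 3942 bases in RefSeq. In GENCODE it overlaps an exon of HOXA9 on the same strand and an exon of HOXA10-AS on the opposite strand. MIR615 (ENSG00000207571.1), on chromosome 12, spanning 54033950 to 54034045 (plus strand), is intronic to HOXC4 and HOXC5.

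**Figure D1:**
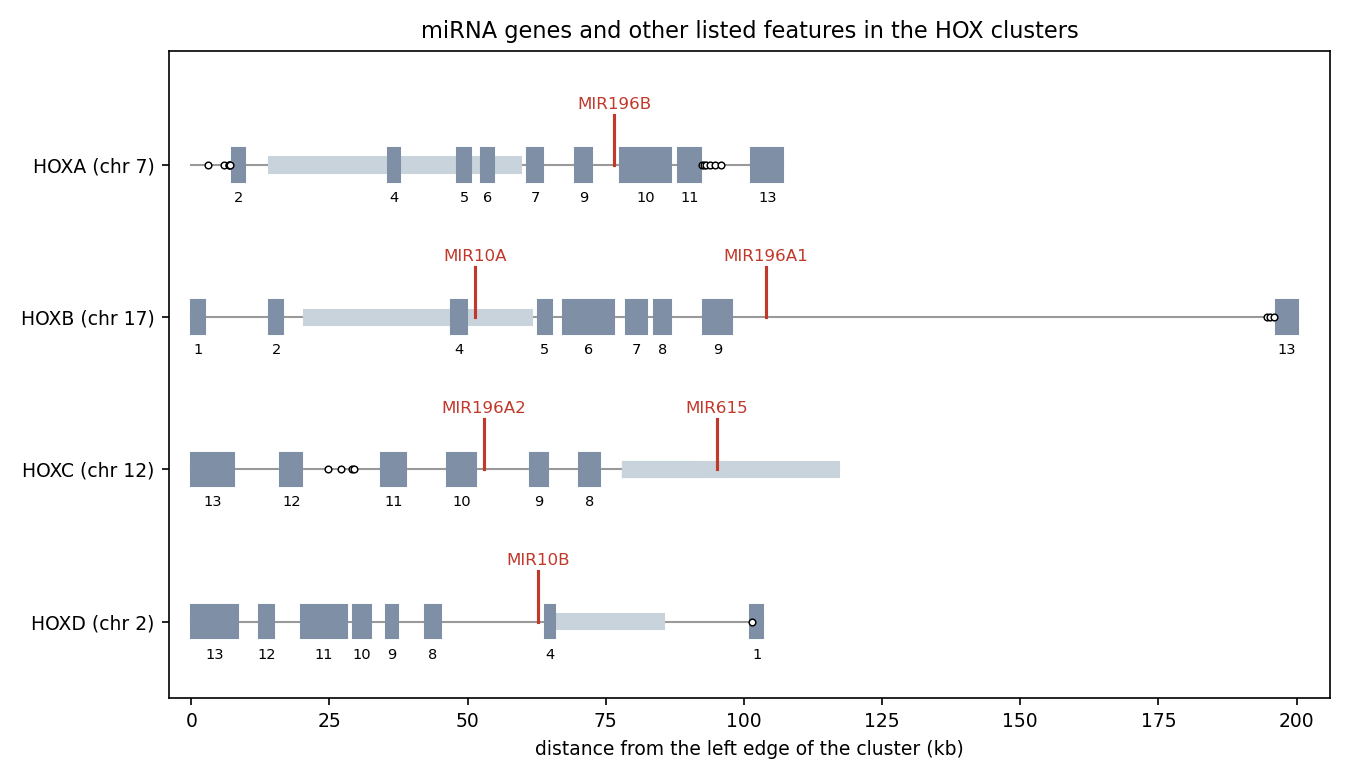
Map of the 4 HOX clusters, with distance in kb from the left edge of each cluster on the x axis. Dark boxes are the HOX genes shown of up to 12 kb with their number below, pale bars are the longer spans of HOXA3, HOXB3, HOXC4, HOXC5, HOXC6 and HOXD3, red lines are the 6 miRNA genes and open circles the other 19 listed features, among them those between HOXA11 and HOXA13, beside HOXB13, between HOXC12 and HOXC11 and within HOXD1.

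The clusters held 25 listed features in all, and the 6 members carried nearly all of the counts there. Of the other 19, 16 had 0 counts in all 4 libraries, including MIR3185 beside HOXB13. MIR7704, within the span of HOXD1, held 9 and 4 counts in 52X T4A against 0 and 4 in 52X WT. The unnamed features ENSG00000273961.1 and ENSG00000276496.1, both within 1 kb of HOXA11, had 3 counts and 1 count in a single 52X WT library each. None of these 3 passed the filter on low counts.

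The libraries held 16180790 and 27370127 counts in 52X T4A replicates 1 and 2, and 16195105 and 19159242 in 52X WT replicates 1 and 2. Across all tested features the replicates differed by more than sampling noise and were treated as separate samples. The SD of the log2 ratio between replicates reached 0.518 for 52X T4A and 0.789 for 52X WT. Of 10 miRNAs typical of liver, striated muscle and blood, the summed CPM (counts per 1000000 of the TMM-scaled library size) was 83.05 to 99.0 for 52X T4A and 31.73 to 34.84 for 52X WT. Most of this came from MIR1-1 and MIR1-2, muscle miRNAs that share a mature strand. Their means were 43.25 and 43.22 CPM in 52X T4A against 15.75 and 15.66 CPM in 52X WT. The groups did not overlap, but neither was called (edgeR, unadjusted p 0.00088 and 0.00086, adjusted p 0.186 for both). Their counts were nearly equal, 738 and 740, then 1259 and 1253 in 52X T4A, and 220 and 219, then 309 and 307 in 52X WT. If a read was counted at both loci, the summed CPM is too high. Without MIR1-1 and MIR1-2 the sum was 3.48 to 5.62 CPM for 52X T4A and 1.65 to 2.13 CPM for 52X WT. MIR133A1 and MIR133A2, at 2 to 29 counts a library, were also higher in 52X T4A. Their log2 fold changes were 2.36 and 2.10, without a call (edgeR, adjusted p 0.1998 and 0.264). MIR223 alone among the markers had a lower mean CPM in 52X T4A. It had 2 counts in every library, so that difference came from the library scaling only. MIR144, of red blood cells, was at 0 in 2 libraries and the other 9 markers had counts in each. The part of these markers in the values that follow was not tested, and no defining miRNA of HEK293T was used. In such bulk samples, fewer cells of a type and less of an RNA per cell cannot be told apart.

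MIR10A was the most abundant or second most abundant of all features in every library. Its counts were 1555504 and 3466003 in 52X T4A and 1828523 and 2125326 in 52X WT, or 98278, 109776, 125307 and 112898 CPM. By CPM, the 52X T4A libraries were both below the 52X WT libraries. The gap between 52X T4A replicate 2 and 52X WT replicate 2 was narrow. As a percent of all counts the groups overlapped, at 9.613% and 12.66% in 52X T4A against 11.29% and 11.09% in 52X WT. The means were 104027 ± 8130 CPM for 52X T4A and 119103 ± 8774 CPM for 52X WT (SD, n = 2 here and below). On the log2 scale the fold change of 52X T4A against 52X WT was −0.20 ± 0.18 (SE), with a 95% interval from −0.59 to 0.20, and MIR10A was not called (edgeR's quasi-likelihood test, Benjamini-Hochberg adjusted p 0.676). A drop to 0.663-fold and a rise to 1.15-fold bound that interval.

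MIR10B followed MIR10A closely. It had 1502651 and 3337878 counts in 52X T4A and 1748959 and 1988221 in 52X WT, or 94939, 105718, 119854 and 105615 CPM. 52X WT replicate 1 was the highest and 52X T4A replicate 1 the lowest, while the other pair of libraries crossed, so the groups overlapped. Mean levels were 100328 ± 7622 CPM for 52X T4A and 112735 ± 10069 CPM for 52X WT. The log2 fold change, −0.17 ± 0.18 (SE), had a 95% interval from −0.57 to 0.23 and an adjusted p of 0.729 (edgeR). With the counts of both genes summed into a single feature, the log2 fold change came to −0.18 ± 0.18 (SE), without a call (edgeR, adjusted p 0.713). Scaled by library size alone in place of TMM factors, the summed pair was at 0.0066.

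The miR-196 genes were far less abundant, and MIR10A had at least 67.42 times the counts of MIR196B, the highest of them, in each library. MIR196B had 23071 and 38790 counts in 52X T4A and 18373 and 27303 in 52X WT, or 1458, 1229, 1259 and 1450 CPM. MIR196A2 had 18384 and 31992 counts against 14616 and 22019, or 1162, 1013, 1002 and 1170 CPM. MIR196A1 had 15531 and 27209 counts against 11848 and 18507, or 981.3, 861.8, 811.9 and 983.1 CPM. By these TMM-scaled CPM, 52X T4A replicate 1 and 52X WT replicate 2 were the high libraries in all 3 genes. The other pair were the low ones, so the groups overlapped. As a percent of all counts, 52X T4A replicate 2 was instead the highest library for MIR196A1 (0.09941%) and MIR196A2 (0.1169%). For MIR196B it was at 0.1417%, beside 0.1426% in 52X T4A replicate 1 and 0.1425% in 52X WT replicate 2. The groups overlapped on that scale too. The log2 fold changes were −0.01 ± 0.21 (SE) for MIR196B, 0.0023 ± 0.21 for MIR196A2 and 0.04 ± 0.22 for MIR196A1, all small against the spread between replicates. Their 95% intervals ran from −0.49 to 0.46, from −0.47 to 0.48 and from −0.45 to 0.53, and none was called (edgeR, adjusted p of 0.991, 0.998 and 0.981).

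MIR615 was the least abundant member. Its counts were 406 and 931 in 52X T4A and 401 and 574 in 52X WT, or 25.65, 29.49, 27.48 and 30.49 CPM, and the groups overlapped. The group means, 27.6 ± 2.71 CPM for 52X T4A and 29.0 ± 2.13 CPM for 52X WT, differed by less than an SD. Its log2 fold change, −0.07 ± 0.30 (SE), had a 95% interval from −0.74 to 0.60 and an adjusted p of 0.969 (edgeR). Counting error alone was 4.99% in its lowest library, against 0.0802% for MIR10A, and this covers sampling of reads only.

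**Figure D2:**
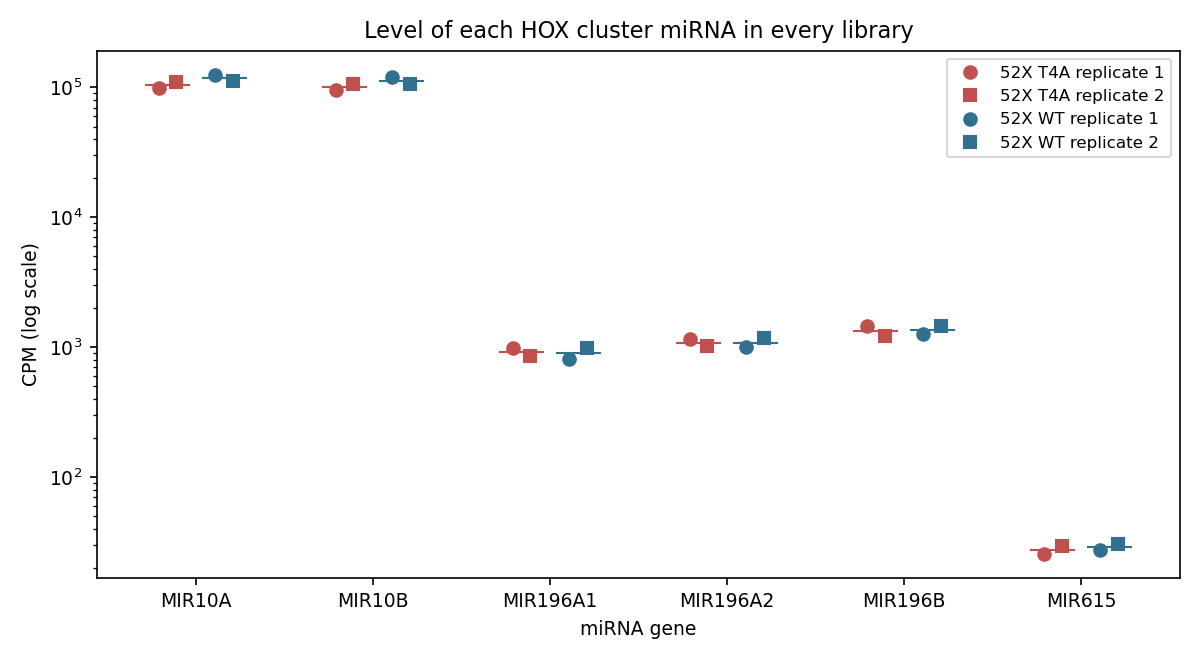
CPM of each HOX cluster miRNA (log scale) by gene, with a circle for replicate 1, a square for replicate 2 and a short line at the mean of the 2 libraries of a group (red 52X T4A, blue 52X WT). MIR10A and MIR10B sit between 94939 and 125307 CPM, the miR-196 genes between 811.9 and 1458 CPM and MIR615 between 25.65 and 30.49 CPM, and within each gene the groups lie close together.

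All 6 members passed the filter on low counts and 0 were called by edgeR (adjusted p below 0.05 and fold change above 1.5), beside a background of 0.135% of the 1480 tested features, 0.0676% higher and 0.0676% lower in 52X T4A. By an unadjusted p below 0.05 the count of members was also 0 (edgeR), beside 10.3% of tested features, 3.99% higher and 6.28% lower, and DESeq2 called 0 of the 6, beside 30 of the 928 features to which it gave an adjusted p (3.23%). By TMM-scaled CPM, MIR10A alone had groups that did not overlap, lower in 52X T4A. The same was true of 21.2% of tested features, with 18.9% higher and 40.1% in either direction. As a percent of all counts, the MIR10A groups overlapped. The median log2 fold change of the 6 members was −0.04, beside −0.05 over all tested features, with 2 members above 0 and 4 below, where 46.1% of tested features were above 0.

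Levels were ordered per kilobase of hairpin, a scale that corrects for the listed length but not for the shorter mature strand that is sequenced. MIR10A came first, at 945700 ± 73911 CPM per kb in 52X T4A and 1082750 ± 79765 in 52X WT, and MIR10B next, at 912076 ± 69291 and 1024862 ± 91533. The means of these neighbours differed by less than the spread between replicates within a group. Within each library, though, MIR10A was above MIR10B, by 1.035 to 1.069 times, as both hairpins have the same listed length. MIR196B followed at 15989 ± 1928 and 16128 ± 1610 CPM per kb, then MIR196A1 at 13165 ± 1207 and 12822 ± 1729, and MIR196A2 at 9885 ± 953 and 9869 ± 1080. MIR196B exceeded MIR196A1 in 4 of 4 libraries, at 17353 against 14018 and 14626 against 12311 CPM per kb in 52X T4A and 14989 against 11599 and 17266 against 14044 in 52X WT. MIR615 was far below, at 287.2 ± 28.2 and 301.9 ± 22.2 CPM per kb. By CPM, without the length, MIR196A2 stood above MIR196A1, so the order of that pair depends on the scale.

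Ratios within a library do not depend on the scaling between libraries. The ratio of MIR10A to MIR10B counts was 1.035 and 1.038 in 52X T4A and 1.045 and 1.069 in 52X WT. MIR10A held more counts in 4 of 4 libraries, by 52853 to 137105 counts. The log2 ratio averaged 0.0521 ± 0.00316 for 52X T4A against 0.0802 ± 0.0226 for 52X WT, a difference of −0.0281 without overlap. An exact two-sided permutation test gave p = 0.333, the smallest it can give with 2 libraries against 2 (0.778 adjusted over 7 ratios).

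Ratios among the miR-196 loci also varied little over the libraries. MIR196A2 to MIR196A1, which share a mature strand in full, gave 1.184 and 1.176 in 52X T4A and 1.234 and 1.19 in 52X WT. These did not overlap (exact two-sided permutation test, p = 0.333, the smallest possible, 0.778 adjusted over 7 ratios). MIR196B to MIR196A2, which differ by a single base in that strand, gave 1.255 and 1.212 against 1.257 and 1.24, with overlap. Over the 4 libraries the log2 ratio had an SD of 0.0209 for the miR-10 pair, 0.031 for MIR196A2 with MIR196A1 and 0.024 for MIR196B with MIR196A2. The ratio of MIR10A to MIR196B, across families, had a wider SD of 0.244 and ran from 67.42 to 99.52. MIR1-1 and MIR1-2, markers that also share a mature strand, held nearly equal counts in each library, as given above. The share of reads counted at more than 1 locus was not tested here, for those markers or for the miR-10 and miR-196 loci.

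The families differed from each other in how they varied over the libraries. By TMM-scaled CPM, MIR10A was lowest in 52X T4A replicate 1 and highest in 52X WT replicate 1. It was at −0.178 and 0.173 there, on the log2 scale around its own mean. MIR196A1 was at 0.114 and −0.159 in those libraries, the opposite order. Likeness was measured as the root mean square distance of centred log2 CPM over the 4 libraries, among 334 other features averaging 1000 counts or more (335 for MIR615), and is a description. MIR10B was the feature most like MIR10A, at a distance of 0.0181, followed by MIR125B2 at 0.0513 and the feature named U8 at 0.053. The miR-196 genes were 0.208 to 0.228 from MIR10A, near the median distance of 0.255 over all those features.

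Nearest to MIR196A1 were MIR196A2 at 0.0268, MIRLET7G at 0.0314 and MIR196B at 0.0432. MIR196A2 had ENSG00000275090.1 at 0.0197, MIR196B at 0.0208 and MIRLET7G at 0.0209 as its nearest features, and MIR196B had RN7SL128P at 0.0113, MIR196A2 at 0.0208 and ENSG00000275090.1 at 0.0244. MIR615 lay nearest to SNORD60 and ENSG00000281010.1, both at 0.0418, and MIR128-2 at 0.0493. With 4 libraries, unlike classes of RNA can share a pattern. Loci with the same or nearly the same mature strand can share reads, as within the miR-10 pair and the miR-196 genes. Nearness through shared reads and nearness through like levels cannot be told apart here.

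**Figure D3:**
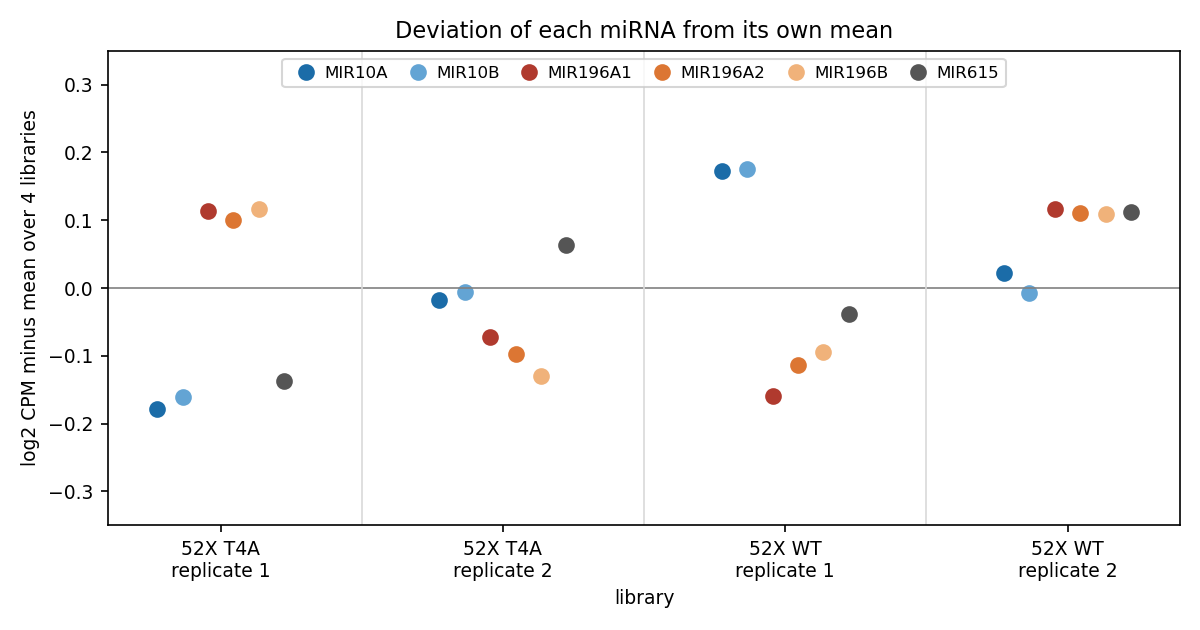
Log2 CPM (TMM-scaled) of each HOX cluster miRNA minus its own mean over the 4 libraries, by library. MIR10A and MIR10B move together, from −0.178 and −0.161 in 52X T4A replicate 1 to 0.173 and 0.175 in 52X WT replicate 1, while the 3 miR-196 genes are above 0 in 52X T4A replicate 1 and 52X WT replicate 2 and below 0 in the other libraries.

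As a share of all counts, the 6 members took 19.25% and 25.22% for 52X T4A against 22.37% and 21.83% for 52X WT. The 52X T4A libraries lay on either side of the 52X WT libraries. The difference of the means, 22.2% ± 4.22 and 22.1% ± 0.383, was 0.139 percentage points and within the replicate spread (exact two-sided permutation test, p = 1.0). As a share of miRNA counts alone, the values were 27.17% and 33.49% for 52X T4A against 35.22% and 29.75% for 52X WT. The groups overlapped and the difference turned to −2.16 points, from means of 30.3% ± 4.47 and 32.5% ± 3.87 (exact two-sided permutation test, p = 0.667). The miR-10 pair held 98.49% of the members' counts, the miR-196 genes 1.502% and MIR615 0.01297%. If a read at the miR-10 pair was counted at both loci, the share is lower. With MIR10B left out of the members' counts, it was 9.968% and 13.02% in 52X T4A and 11.57% and 11.45% in 52X WT. The total still held the MIR10B counts, so these values are too low for a pair counted at both loci throughout.

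The 6 sequence relatives of miR-10 elsewhere in the genome were MIR99A, MIR99B, MIR100, MIR125A, MIR125B1 and MIR125B2. Their mature strands resemble hsa-miR-10a-5p but carry other seeds:
hsa-miR-99a-5p: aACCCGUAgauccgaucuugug
hsa-miR-99b-5p: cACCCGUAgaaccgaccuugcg
hsa-miR-100-5p: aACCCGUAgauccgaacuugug
hsa-miR-125b-5p: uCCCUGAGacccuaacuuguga
All 6 were tested and 0 were called (edgeR, smallest adjusted p 0.766, with 0 at an unadjusted p below 0.05). Their log2 fold changes ran from −0.10 for MIR125B2 to 0.21 for MIR99A, with 3 above 0 and 3 below and a median of 0.07. MIR99B, the most abundant of them, was at 5954 and 7187 CPM in 52X T4A and 5534 and 6144 CPM in 52X WT, with overlap. The ratio of MIR10A to MIR99B counts was 16.51 and 15.27 in 52X T4A and 22.64 and 18.38 in 52X WT. These ratios did not overlap, and the log2 difference of −0.36 had an exact two-sided permutation p of 0.333, the smallest possible (0.778 adjusted over 7 ratios).

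**Figure D4:**
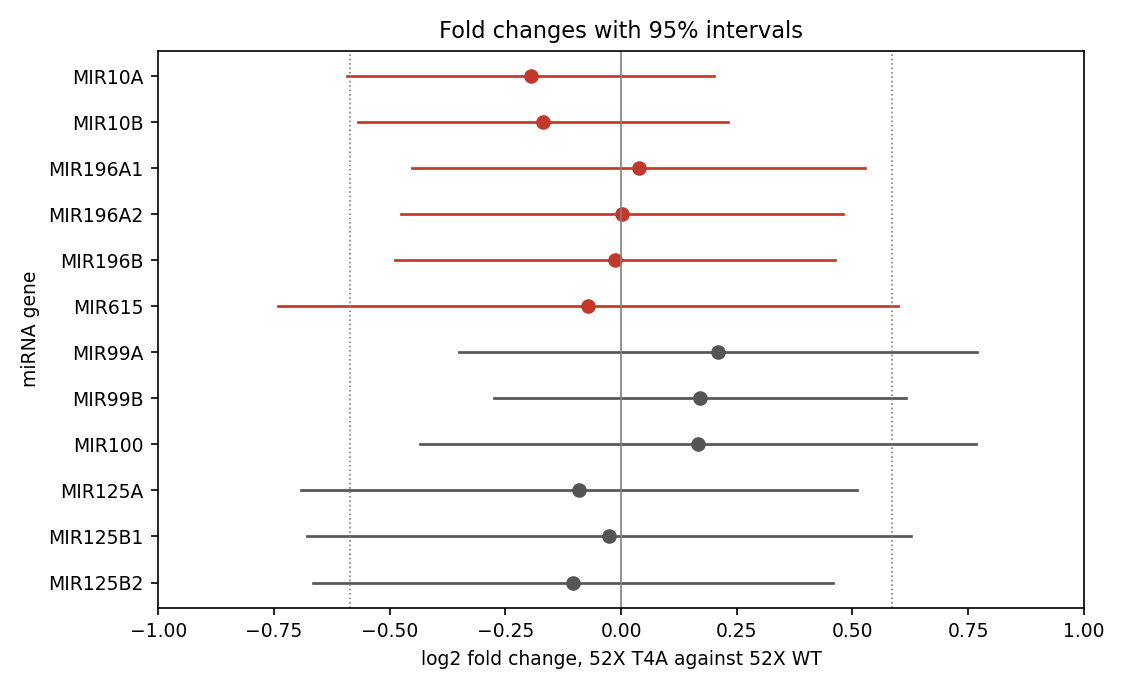
Log2 fold change of 52X T4A against 52X WT for the 6 HOX cluster miRNAs (red) and 6 relatives of miR-10 (grey), with the 95% interval from the edgeR fit as a line and dotted lines at a change of 1.5-fold in either direction. Every interval crosses 0, from MIR10A at −0.20 to MIR99A at 0.21.

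The fold changes of the members were followed across settings, since MIR10A and MIR10B changed by about their standard error and the other members by less than theirs. MIR10A stayed below 0 in all of them, between −0.27 without 52X WT replicate 2 and −0.0068 with library size alone. The miR-196 genes and MIR615 changed sign with the library left out, and without 52X WT replicate 1 all 3 miR-196 genes lay between −0.21 and −0.19. In 84 comparisons of a member with an alternative, 0 gave a call, and the adjusted p-values ran from 0.65 to 0.9997 (edgeR or DESeq2).

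**Figure D5:**
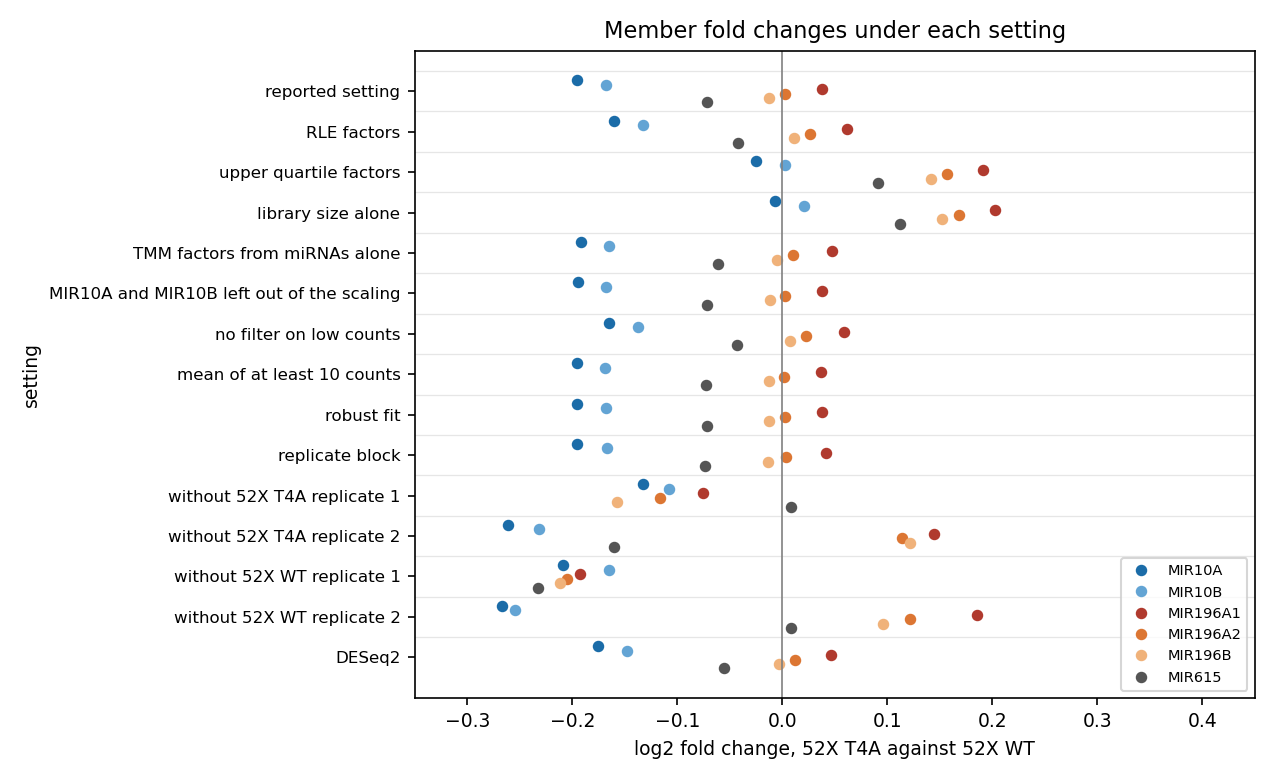
Log2 fold change of each HOX cluster miRNA (coloured points) under the reported setting and each alternative, listed on the y axis. MIR10A and MIR10B are the lowest points under every setting that kept all 4 libraries, and upper quartile factors and library size alone shift all members to the right.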

How the data were processed

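Small RNA libraries of single-end 50 bp reads were made from total RNA, with 2 libraries per group that the submitters call biological replicates. The authors deposited raw read counts per small RNA feature for each library, with no normalization. The submitters' processing notes name cutadapt 4.6, Bowtie2 2.3.5.1, featureCounts 1.5.0 and the hg38 build, without settings, so the handling of multi-mapping reads and of mismatches, which bears on near-identical miRNAs, is not given in the sources used here. Counts at a hairpin do not separate its 5p and 3p strands.

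Symbols were looked up in GENCODE v44lift37 through the Ensembl identifier for 5579 features (4 members) and from an identical RefSeq GRCh38.p14 position for 908 (2 members), while 575 stayed unnamed. Exon and intron overlaps were read in GENCODE v44lift37 after locating each hairpin by exact match in GRCh37, and no coordinates were converted.

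Counts were tested with edgeR v4.0.16 (quasi-likelihood F test) in R v4.3.3 over all features, with filterByExpr at a minimum count of 10, TMM factors and Benjamini-Hochberg adjustment. A call needed an adjusted p-value below 0.05 and a fold change above 1.5. Standard errors were the log2 fold change divided by the square root of F. CPM used TMM-scaled library sizes. The test was checked on simulated data at the dispersion common to all features. It called 24 of 193 features changed by 2-fold (12.4%) and 178 of 191 changed by 4-fold (93.2%). Unchanged features gave 1 and 5 calls in these simulations. Most changes of 2-fold were thus missed at that dispersion. Total counts of 16180790 to 27370127 per library set the depth. Alternatives, with DESeq2 v1.42.0 among them, are described in the closing section. The miRNAs named were the members, other features within HOX clusters, 6 relatives of miR-10, 10 markers of other cell types and the 3 features nearest to each member. The members and lists were chosen with earlier results of these data known. The ratios of member pairs other than MIR10A to MIR10B were chosen after the values had been seen. A gene within the clusters is not reported or drawn here.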

Additional observations from a re-analysis of the deposited data

How the results depend on the processing

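Of 84 comparisons of a member's fold change with an alternative, 68 kept their direction and 16 reversed, 8 of them with all 4 libraries in the fit, and 0 gave a call. MIR196B turned to 0.0115 with RLE factors, 0.0073 without a filter on low counts, 0.14 with upper quartile factors and 0.15 with library size alone. MIR10B turned to 0.0029 with upper quartile factors and 0.0207 with library size alone, and MIR615 to 0.0907 and 0.11. Under these 2 scalings the median over all tested features was 0.13 and 0.14 in place of −0.05. Leaving out each library in turn, where the lone sample of a group is assumed to vary like the other group, gave ranges of −0.19 to 0.19 for MIR196A1, −0.20 to 0.12 for MIR196A2, −0.21 to 0.12 for MIR196B, −0.23 to 0.0080 for MIR615, −0.27 to −0.13 for MIR10A and −0.25 to −0.11 for MIR10B. For the summed miR-10 pair, alternatives added once the values were known gave 0.0066 with library size alone and −0.26 to −0.12 with a library left out.

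Over all tested features, 2 were called in the reported setting, 9 with library size alone, 0 with TMM factors from miRNAs alone (143 at an unadjusted p below 0.05), 29 without a filter (of 3803 features) and 30 with DESeq2 (of 928 with an adjusted p), and from 4 to 218 with a library left out, with 6 and 4 calls on leaving out 52X T4A replicate 1 or 2, and 35 and 218 on leaving out 52X WT replicate 1 or 2. A replicate block gave 18 calls, 0 of them members, and MIR10A was at −0.20, MIR10B at −0.17 and the summed pair at −0.18. Nothing in the labels ties libraries of the same number together, and their deviations from the group means correlated at 0.0946 over features. The MIR10A to MIR10B log2 difference ran from −0.0441 to −0.0121, and the share difference from −2.84 to 3.12 points, with a library left out. For all of these changes, the cause was not tested. With 2 libraries a group, changes within the intervals given, and some beyond them, could go uncalled.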
